A study of Mus musculus with 12 samples.

Results

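The circadian clock genes described here are the 10 transcripts Arntl, Clock, Npas2, Per1, Per2, Per3, Cry1, Cry2, Nr1d1 and Dbp, which were chosen by gene name among the 54532 genes of the deposited count table. All 10 passed the filter on low counts, as did 16915 genes in all. RNA of the ventral hippocampus of wild-type mice was sequenced in 12 libraries, which form 4 groups of 3. The SSDS-shACOT12 mice were exposed to SSDS after knockdown of ACOT12, an acetyl-CoA thioesterase, in the liver. The SSDS-GFP mice had received AAV8-eGFP, a viral vector that carries a fluorescent protein, before the same exposure. The CSDS mice were exposed to CSDS and the control mice to no treatment, and no virus is named for either. CSDS and SSDS are not spelled out in the labels, and are the usual short forms of chronic and of subthreshold social defeat, a stress in which a mouse meets an aggressor. The names of the SSDS columns also carry the letters TBG, which in such vectors usually denote a promoter used for expression in liver cells. No age, sex, collection time or batch is given, and nothing states that replicates are separate animals, so the p-values reflect no more than library-to-library spread.

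The mammalian clock is a loop of transcription and feedback that runs in almost every cell with a period of about a day. ARNTL, also called BMAL1, pairs with CLOCK or with its paralogue NPAS2, and the pair switches on genes that carry E-box sequences. Among these are the Per and Cry genes, whose proteins return to the nucleus and block the pair, and Nr1d1 and Dbp. NR1D1, also called REV-ERB alpha, represses Arntl, while DBP switches on genes through D-box sequences. In mouse tissues the transcripts of Arntl and Npas2 therefore peak at about the opposite time of day from those of Dbp, Nr1d1 and the Per genes, with Cry1 later than the Per genes. In the hippocampus the loop has been linked to memory and mood, and Per1 and Per2 are also induced by neuronal activity and by glucocorticoids.

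The promoter windows of 4 genes are shown because they carry the regulatory letters of both arms of the loop and belong to the genes on which the results turn: Per3, which had the smallest p among the clock genes, Nr1d1, which varied with Dbp, and Per1 and Arntl, which stood on opposite sides in the library that stands apart. They are windows of build GRCm38.p6 from 250 bases before to 50 bases after a start annotated in RefSeq, 5′ to 3′ on the gene's strand. This start need not equal the gene start of the count table. The Per1 window lies inside the gene, downstream of its start there (69095217). Capitals mark an E-box (CACGTG), an E-box variant (CACGTT, which reads AACGTG on the other strand), a D-box (TTATGTAA or TTACGTAA) or the core of a site for REV-ERB and ROR proteins (TAGGTCA or TGGGTCA), searched on both strands. No match overlapped another.
Per3 (chr4:151044616-151044915, minus strand, D-boxes at -205 and -158): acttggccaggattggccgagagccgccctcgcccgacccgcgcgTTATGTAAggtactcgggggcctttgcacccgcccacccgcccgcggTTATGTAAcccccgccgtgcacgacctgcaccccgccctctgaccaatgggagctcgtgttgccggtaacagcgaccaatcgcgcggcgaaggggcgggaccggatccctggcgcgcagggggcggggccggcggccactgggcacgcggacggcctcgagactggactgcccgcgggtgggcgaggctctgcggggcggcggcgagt
Nr1d1 (chr11:98775328-98775627, minus strand, E-box variant at -28): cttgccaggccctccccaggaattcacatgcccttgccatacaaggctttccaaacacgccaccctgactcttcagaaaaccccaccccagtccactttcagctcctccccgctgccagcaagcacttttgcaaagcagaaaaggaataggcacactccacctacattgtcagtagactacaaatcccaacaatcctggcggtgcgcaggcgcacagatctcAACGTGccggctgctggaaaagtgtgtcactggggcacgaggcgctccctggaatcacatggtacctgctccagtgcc
Per1 (chr11:69098699-69098998, plus strand, E-box at -166): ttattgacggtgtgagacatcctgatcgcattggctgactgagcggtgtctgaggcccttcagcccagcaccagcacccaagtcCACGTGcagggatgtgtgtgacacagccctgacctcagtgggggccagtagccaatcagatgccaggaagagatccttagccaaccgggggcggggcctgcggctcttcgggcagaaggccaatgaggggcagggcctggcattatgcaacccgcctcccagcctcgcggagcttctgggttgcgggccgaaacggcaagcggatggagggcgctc
Arntl (chr7:113207261-113207560, plus strand, TAGGTCA at 31): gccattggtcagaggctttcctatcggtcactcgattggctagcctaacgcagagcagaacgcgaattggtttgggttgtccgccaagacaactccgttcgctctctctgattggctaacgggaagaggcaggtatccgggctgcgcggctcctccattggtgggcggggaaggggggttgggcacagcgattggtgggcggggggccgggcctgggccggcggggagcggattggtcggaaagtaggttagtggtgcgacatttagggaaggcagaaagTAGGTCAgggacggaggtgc
Positions count from the RefSeq start to the first letter of the match. Windows were found for 9 of the 10 genes, 13 in all, and Per2 had none in the table. Arntl, Clock and Per1 had more than 1 window, and the other window of Per1 and of Arntl held 0 matches and is not shown. Below, a gene counts once if any of its windows holds the letters, whereas the share of all genes is per window. The E-box was present in windows of 2 of the 9 genes, Per1 and Cry1, and in 7.15% of the 32851 windows of all genes. The variant was present in 3 of the 9, Cry1, Cry2 and Nr1d1, and in 4.68% of all windows. TTATGTAA was found in Per3, which held it at both positions, and in 0.938% of all windows. TAGGTCA was found in Arntl and in 2.61% of all windows. Neither TTACGTAA (0.119% of all windows) nor TGGGTCA (3.98%) was found in a window of these genes. A match describes the letters of these windows and says nothing of binding.

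The libraries held 14656714 to 17694570 counts, and each clock gene had from 171 counts (Npas2 in Control 3) to 2196 counts (Cry2 in SSDS-shACOT12 3). The knockdown was in the liver, so the hippocampal level of Acot12 is no check of the labels and is not given. SSDS-shACOT12 3, SSDS-shACOT12 1 and SSDS-GFP 3 stood apart on principal component 1 of the log2 CPM values, at 63.1, 37.4 and 35.7, against at most 5.82 in the other 9 libraries. The median deviation of the longest eighth of genes minus that of the shortest eighth ran from -0.40 (SSDS-shACOT12 3) to 0.12 in SSDS libraries and from -0.03 to 0.31 in the others, on the log2 scale. The 7 markers of ventral hippocampus summed to 55.0 to 335 CPM in SSDS-shACOT12, 74.6 to 342 CPM in SSDS-GFP, 93.9 to 144 CPM in CSDS and 32.4 to 90.6 CPM in control. The 7 markers of dentate granule cells summed to 270.4 to 595 CPM in SSDS-shACOT12, 501 to 548 CPM in SSDS-GFP, 419 to 545 CPM in CSDS and 662 to 795 CPM in control, which was thus above every other library. No marker of these lists had 0 counts in a library. Of the 6 markers of the suprachiasmatic nucleus, the hypothalamic site of the body's central clock, Six6 had 0 counts in every library, Nms at most 2, Lhx1 at most 7, Prok2 at most 8 and Avp at most 15, while Vip, which hippocampal interneurons also express, had 142 to 337. In bulk tissue, fewer cells of a type and less RNA per cell cannot be told apart.

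Per length of transcript, Nr1d1 and Cry2 were the most abundant of the clock genes. Nr1d1 averaged 17.7 ± 2.68 FPKM and Cry2 16.7 ± 2.46 FPKM (SD over 12 libraries), levels that did not differ beyond their spread. Per1 (10.9 ± 2.98 FPKM) and Dbp (10.5 ± 3.28 FPKM) came next and were likewise within each other's spread. Per2 averaged 5.78 ± 1.73 FPKM, Clock 5.42 ± 1.25, Cry1 4.62 ± 0.588, Arntl 4.02 ± 0.681, Per3 3.75 ± 0.770 and Npas2 3.36 ± 1.03 FPKM, and each of these differed from the next in the order by less than the larger of their SDs. Values per library below are CPM of the library scaled by TMM, which are compared only within a gene.

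**Figure D1:**
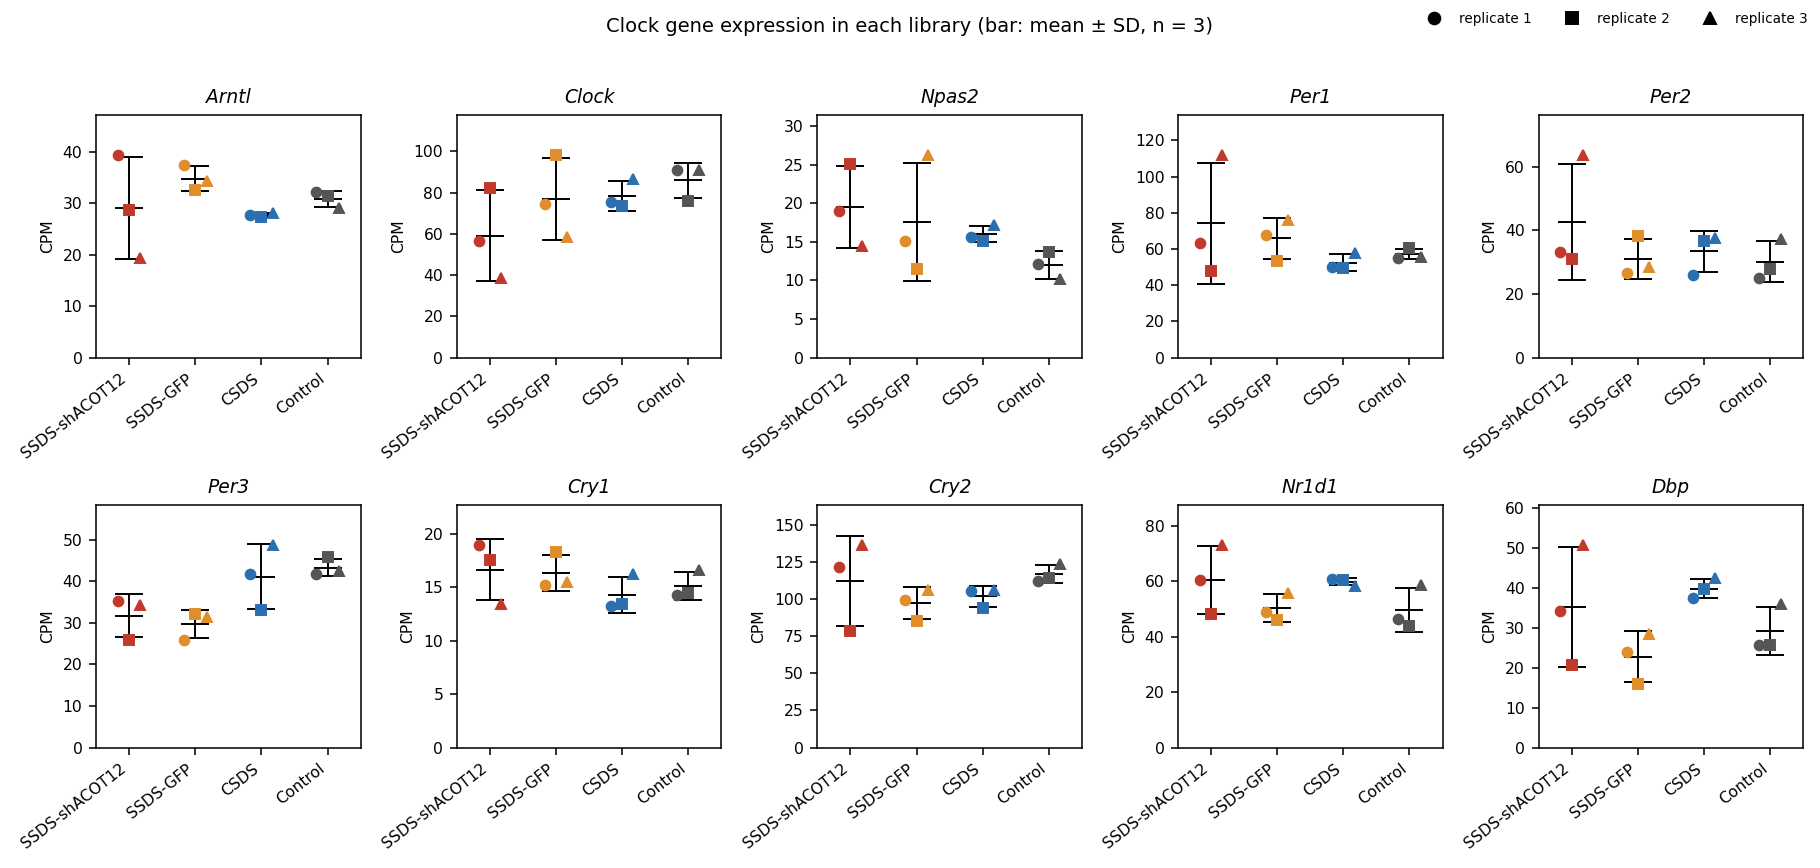
Level of each of the 10 clock genes in CPM (vertical axis, from 0) in the 3 libraries of each of the 4 groups (horizontal axis). Points are libraries, with the shape giving the replicate number, and bars give the mean ± SD (n = 3); Dbp ran from 15.9 to 50.6 CPM and Cry1 from 13.2 to 18.9 CPM.

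Among the activators, Npas2 had higher values in CSDS than in control libraries, and Arntl and Clock were lowest in SSDS-shACOT12 3. Arntl, the partner that every activating pair needs, had 39.3, 28.6 and 19.4 CPM in SSDS-shACOT12 libraries 1 to 3, 37.4, 32.5 and 34.4 CPM in SSDS-GFP, 27.7, 27.2 and 28.1 CPM in CSDS, and 32.1, 31.4 and 29.0 CPM in control. Both its highest and its lowest level lay within the SSDS-shACOT12 group, whereas the CSDS libraries lay close together and below all control libraries. Clock had 56.4, 82.2 and 38.5 CPM in SSDS-shACOT12, 74.4, 98.0 and 58.5 CPM in SSDS-GFP, 75.3, 73.4 and 86.7 CPM in CSDS, and 90.8, 75.9 and 90.9 CPM in control. Its ranges overlapped between all groups compared. Npas2, the paralogue of Clock that is prominent in the forebrain, had 18.9, 25.1 and 14.5 CPM in SSDS-shACOT12, 15.1, 11.5 and 26.2 CPM in SSDS-GFP, 15.6, 15.2 and 17.1 CPM in CSDS, and 12.1, 13.7 and 10.2 CPM in control. The CSDS libraries lay above all control libraries, and the SSDS libraries spanned both groups.

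The Per genes encode the feedback repressors that bring CRY proteins to the activators. Per1 had 63.2, 47.9 and 112 CPM in SSDS-shACOT12, 68.0, 53.4 and 76.1 CPM in SSDS-GFP, 49.9, 49.4 and 57.7 CPM in CSDS, and 55.1, 60.4 and 55.8 CPM in control. Per2 had 33.1, 31.0 and 63.5 CPM in SSDS-shACOT12, 26.5, 38.2 and 28.4 CPM in SSDS-GFP, 26.0, 36.7 and 37.5 CPM in CSDS, and 25, 27.8 and 37.3 CPM in control. SSDS-shACOT12 3 held the highest level of both, above the next library at 76.1 CPM for Per1 and 38.2 CPM for Per2. Per3 had 35.2, 25.8 and 34.2 CPM in SSDS-shACOT12, 25.8, 32.0 and 31.3 CPM in SSDS-GFP, 41.6, 33.0 and 48.6 CPM in CSDS, and 41.8, 45.8 and 42.3 CPM in control. All 6 SSDS libraries lay below all control libraries for Per3, and CSDS 2 was the one library outside SSDS within their range.

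Of the cryptochromes, which close the loop by inhibiting the activators, Cry1 was the steadiest of the 10 genes. It had 18.9, 17.6 and 13.4 CPM in SSDS-shACOT12, 15.2, 18.3 and 15.5 CPM in SSDS-GFP, 13.2, 13.5 and 16.2 CPM in CSDS, and 14.3, 14.5 and 16.6 CPM in control, with overlap between all groups. Cry2 had 122, 78.4 and 136 CPM in SSDS-shACOT12, 99.5, 85.2 and 106 CPM in SSDS-GFP, 105, 93.8 and 106 CPM in CSDS, and 112, 114 and 123 CPM in control. Its control libraries lay above all SSDS-GFP and all CSDS libraries, while the SSDS-shACOT12 group held both the highest and the lowest library of the 12.

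Nr1d1, the repressor of Arntl, had 60.4, 48.3 and 72.9 CPM in SSDS-shACOT12, 48.9, 46.0 and 55.8 CPM in SSDS-GFP, 60.7, 60.4 and 58.3 CPM in CSDS, and 46.4, 43.7 and 58.6 CPM in control. Dbp, the D-box activator, had 34.1, 20.6 and 50.6 CPM in SSDS-shACOT12, 24.0, 15.9 and 28.4 CPM in SSDS-GFP, 37.5, 39.6 and 42.4 CPM in CSDS, and 25.7, 25.7 and 36.0 CPM in control. Both genes were highest in SSDS-shACOT12 3. All CSDS libraries exceeded all control libraries for Dbp but not for Nr1d1, for which Control 3 lay above CSDS 3. Each of these genes shares exon bases with a neighbour on the opposite strand, Dbp 539 of 2993 with Sphk2 and Nr1d1 263 of 3077 with Thra, and the strand setting of the counting is not given in the sources used here, so reads of the shared bases cannot be told apart. Per3 lies wholly inside Camta1, on the same strand, with 0 shared exon bases.

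CSDS against control asks what repeated stress changes in this region. None of the 10 clock genes passed the edgeR quasi-likelihood test with Benjamini-Hochberg adjustment, as was true of 0% of all genes tested, and 0 of the 10 had an unadjusted p under 0.05, against 5.87% of all genes. Of the 10, 4 did not overlap between the groups, against 20.3% of all genes: Dbp and Npas2 were above, and Arntl and Cry2 below, all control libraries. The largest fitted differences were those of Dbp, at 0.45 ± 0.28 on the log2 scale (SE; adjusted p = 0.893; 95% interval -0.15 to 1.05), and Npas2, with 0.42 ± 0.27 (adjusted p = 0.901; interval -0.17 to 1.00). Nr1d1 had 0.27 ± 0.16 (adjusted p = 0.883), Cry2 -0.20 ± 0.17 (adjusted p = 0.922) and Arntl -0.16 ± 0.19 (adjusted p = 0.955). The other 5 lay between -0.13 (Clock) and 0.15 (Per2). In all, 4 of the 10 were above 0, against 50.3% of all genes, with a median of -0.08 against 0.00 over all genes. Markers of other cells moved beside them. The 5 red blood cell genes summed to 332 to 386 CPM in CSDS, against 87.8 to 120.1 CPM in control, and all 5 had an unadjusted p under 0.05 (median log2 fold change 1.68), while 0 passed the adjusted test. All 7 dentate granule cell markers were below 0 (median -0.55) and all 7 ventral markers above 0 (median 0.80), with 0 called in either list. The choroid plexus genes summed to 19.5 to 28.2 CPM in CSDS, against 39.8 to 552 CPM in control. All 4 of them tested were below 0 (median -1.11), with 0 called. Ttr of this list had 504, 141 and 7.91 CPM in control libraries 1 to 3. All 5 ependymal markers were below 0 (median -0.58), with 0 called. Their part in the levels of the clock genes was not tested.

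SSDS-shACOT12 against SSDS-GFP asks what the hepatic knockdown changes under the same exposure. Again 0 of the 10 clock genes passed the edgeR test, against 0% of all genes, and 1 of the 10, Dbp, had an unadjusted p under 0.05, against 4.53% of all genes. The log2 fold change of Dbp was 0.63 ± 0.28 (SE; adjusted p = 0.803 in edgeR; 95% interval 0.02 to 1.23), and its ranges overlapped, with SSDS-shACOT12 2 below SSDS-GFP 1 and 3. Between libraries with the same number Dbp and Nr1d1 were higher in SSDS-shACOT12 in 3 of 3 pairs and Clock was lower in 3 of 3. The share of all genes alike in 3 of 3 pairs is not given, so this is not read as a result about these genes. With the number as a block in the fit over all 12 libraries, Clock had -0.39 ± 0.23, Nr1d1 0.26 ± 0.13 and Dbp 0.59 ± 0.20 (adjusted p = 0.778 for each in edgeR). Without SSDS-shACOT12 2 the difference of Dbp was 0.89 and passed the edgeR test (adjusted p = 0.0445). Over all genes, leaving out 1 library gave 0 to 985 calls in this contrast, and the count of that run is not given. Without SSDS-shACOT12 3 the difference of Dbp was 0.27 (adjusted p = 1.00). Without SSDS-GFP 2 it was 0.42. Per2 had 0.45 ± 0.27, which was 0.05 without SSDS-shACOT12 3, Clock had -0.38 ± 0.24, which was -0.14 without it, and Nr1d1 had 0.27 ± 0.16. None of the 10 genes separated the groups, against 4.81% of all genes. The difference was above 0 for 8 of the 10, against 52% of all genes, with a median of 0.16 against 0.01 over all genes. The 5 red blood cell genes, all above 0 here (median 0.62), summed to 92.8 to 205 CPM in SSDS-shACOT12, against 67.1 to 119 CPM in SSDS-GFP, and their part was not tested.

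SSDS-GFP against control combines the virus with SSDS. Per3 was lower in every SSDS-GFP library than in any control library, at -0.54 ± 0.16 on the log2 scale (SE; adjusted p = 0.156 in edgeR; 95% interval -0.89 to -0.19). This is short of the threshold, so 0 of the 10 genes passed, against 0.0946% of all genes, and 1 of the 10 had an unadjusted p under 0.05, against 15.2% of all genes. Npas2 had 0.56 ± 0.27 (adjusted p = 0.350; interval -0.03 to 1.14) and Dbp -0.36 ± 0.28 (adjusted p = 0.570). Besides Per3, Arntl (0.17 ± 0.19) and Cry2 (-0.27 ± 0.17) did not overlap, which makes 3 of the 10 against 23.9% of all genes. Since the control libraries are shared with the CSDS comparison, Cry2 lying below control and Arntl lying away from it in both rest on the same 3 libraries. The difference was above 0 for 6 of the 10, against 50.8% of all genes, with a median of 0.03. Beside these, 7 of 7 ventral markers were above 0 (median 1.57), and 6 of 7 dentate granule cell markers (median -0.73) and 4 of 5 endothelial markers (median -0.48) were below 0, with 0 called in each list. The endothelial markers summed to 213 to 238.6 CPM in SSDS-GFP, against 239.8 to 294 CPM in control. The choroid plexus genes summed to 17.6 to 41.7 CPM in SSDS-GFP, against 39.8 to 552 CPM in control. All 4 of them tested were below 0 (median -0.94), with 0 called. The part of these cells was not tested.

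**Figure D2:**
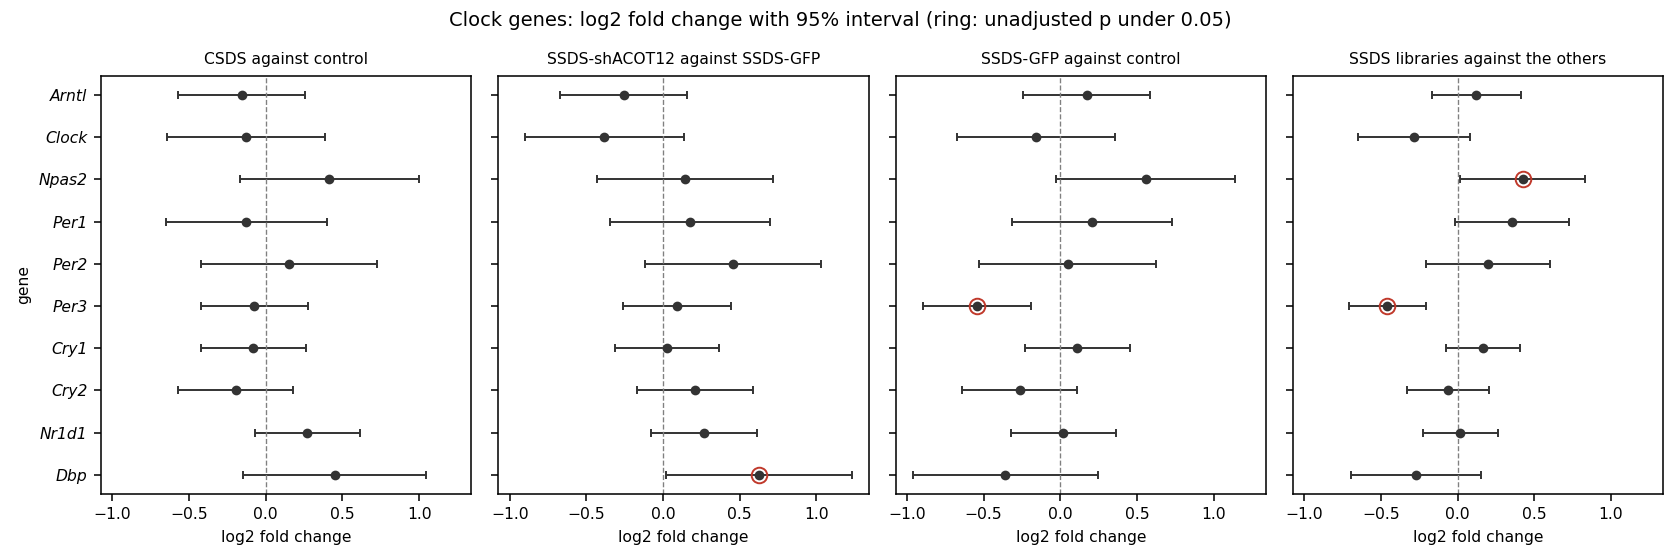
Fitted log2 fold change (horizontal axis) of the 10 clock genes (vertical axis) in each of the 4 comparisons, with the 95% interval as a bar and a dashed line at 0. Rings mark an unadjusted p under 0.05, which Dbp, Per3 (in 2 comparisons) and Npas2 had; no gene passed after adjustment over 16915 genes.

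The 6 SSDS libraries were set against the other 6, a contrast in which virus, exposure and any difference in collection cannot be told apart. Per3 had 25.8 to 35.2 CPM in SSDS libraries (median 31.7), against 33.0 to 48.6 CPM in the others (median 42.1). Its log2 fold change was -0.46 ± 0.12 (SE; adjusted p = 0.0620 in edgeR; 95% interval -0.71 to -0.21), and the 2 ranges overlapped through CSDS 2. The adjusted p of Per3 was 0.0227 without SSDS-shACOT12 2, where Clock and Per1 passed too, and 0.0395 without SSDS-GFP 2. Over all genes, leaving out 1 library gave 9 to 3280 calls in this contrast, against 102 in the full fit. The count of each run is not given, so these calls are not read as a result about the clock genes. Without the 3 libraries that stood apart, Dbp had -0.74, in a fit where SSDS-shACOT12 2 is the only library of its group. With each library's trend with gene length removed, Per3 had -0.34 (adjusted p = 0.156). Camta1, the gene that encloses it, had -0.13 ± 0.18. In the same contrast 4 of 5 endothelial markers were below 0 (median -0.28) and 1 fell, Pecam1 (-0.65 ± 0.13, adjusted p = 0.0424). Of the dentate granule cell markers 6 of 7 were below 0 (median -0.46) and 1 fell, Stxbp6 (-0.59 ± 0.11, adjusted p = 0.0424). All 5 red blood cell genes were below 0 (median -0.99) and 1 was called lower, Hbb-bs (-0.99 ± 0.17, adjusted p = 0.0338). The high values of Hbb-bs were those of CSDS (173 to 222 CPM), while SSDS libraries (35.1 to 87.8 CPM) overlapped control (50.9 to 69.9 CPM). Pecam1, Stxbp6 and Hbb-bs did not pass with the replicate number as a block (adjusted p = 0.0701, 0.0723 and 0.0605 in edgeR) or without CSDS 1, CSDS 3 or any control library (adjusted p up to 0.161). Pecam1 also did not pass without SSDS-shACOT12 3 or SSDS-GFP 1, Stxbp6 without SSDS-GFP 1, SSDS-GFP 3 or CSDS 2, and Hbb-bs without SSDS-GFP 3. With the gene length trend removed, Pecam1 (adjusted p = 0.0600) and Stxbp6 (adjusted p = 0.0533) lost the call. The ventral markers were above 0 in 7 of 7 (median 1.14), with 0 called. The endothelial markers summed to 213 to 265 CPM in SSDS libraries, against 226 to 294 CPM in the others. The red blood cell genes summed to 67.1 to 205 CPM in SSDS libraries, against 87.8 to 120.1 CPM in control and 332 to 386 CPM in CSDS. The part of these cells in the level of Per3 was not tested. Thus 0 of the 10 genes passed, against 0.603% of all genes, and 2 of the 10 had an unadjusted p under 0.05, against 22.6% of all genes. The second was Npas2, at 11.5 to 26.2 CPM in SSDS libraries, against 10.2 to 17.1 CPM in the others (0.42 ± 0.19, adjusted p = 0.208), which was 0.22 without SSDS-GFP 3. Per1 had 0.36 ± 0.17 (adjusted p = 0.237), which was 0.13 without SSDS-shACOT12 3, and Clock -0.28 ± 0.17 (adjusted p = 0.330). None of the 10 separated these libraries, against 1.97% of all genes, and 6 of the 10 were above 0, against 51.3% of all genes. In the test for any difference among the 4 groups, 0 of the 10 passed, against 0.0887% of all genes, and Per3 alone had an unadjusted p under 0.05 (adjusted p = 0.237 in edgeR), against 14.4% of all genes.

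The clock genes varied most between the 3 SSDS-shACOT12 libraries. The median SD of log2 CPM over the 10 genes was 0.46 in SSDS-shACOT12, 0.21 in SSDS-GFP, 0.11 in CSDS and 0.13 in control, against 0.31, 0.25, 0.16 and 0.16 in the same groups over all genes tested. Arntl had an SD of 0.51 in SSDS-shACOT12 and 0.02 in CSDS. Around the group means, Dbp had the largest residual SD (0.41, at percentile 93.3 of the 2613 genes whose mean level was within 0.5 log2 units of its own), followed by Per2 (0.38, percentile 91.2) and Npas2 (0.38, percentile 88.2). Cry1 had the smallest (0.18, percentile 29.3). The median over all genes tested was 0.26.

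SSDS-shACOT12 3 was the highest of the 12 libraries for Per1, Per2, Cry2, Nr1d1 and Dbp and the lowest for Arntl and Clock, 7 of the 10 genes in all. The same library lay farthest out over all genes, on principal component 1 (63.1) and in the trend with gene length (-0.40). The share of all genes at an extreme in it is not given, so the count is not read as a trait of the clock genes. SSDS-shACOT12 2 was at an extreme for 3 genes, the lowest for Per1, Per3 and Cry2, and no other library for more than 2. Relative to its mean over the libraries, SSDS-shACOT12 3 deviated by 0.94 for Per2, 0.88 for Per1 and 0.74 for Dbp, and by -0.92 for Clock and -0.63 for Arntl, on the log2 scale. In the same library Gfap, an astrocyte filament gene that rises when astrocytes react, had 1192 CPM, against 221 to 396 CPM in the other 11. The other 4 astrocyte markers summed to 668 CPM there, against 632 to 884 CPM in the other 11. Of these markers, Slc1a3 was at its lowest there (380 CPM) and Aldh1l1 at its highest (70.1 CPM). The dentate granule cell markers deviated by -0.94 on average there, against -1.18 to 0.73 in the other 11, although C1ql2 among them was at its highest (322 CPM). The ventral markers deviated by 0.64 on average, against -1.60 to 1.36. The mitochondrial share of counts was 4.31%, against 3.23% to 9.24%. Their part in the deviations of the clock genes was not tested.

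**Figure D3:**
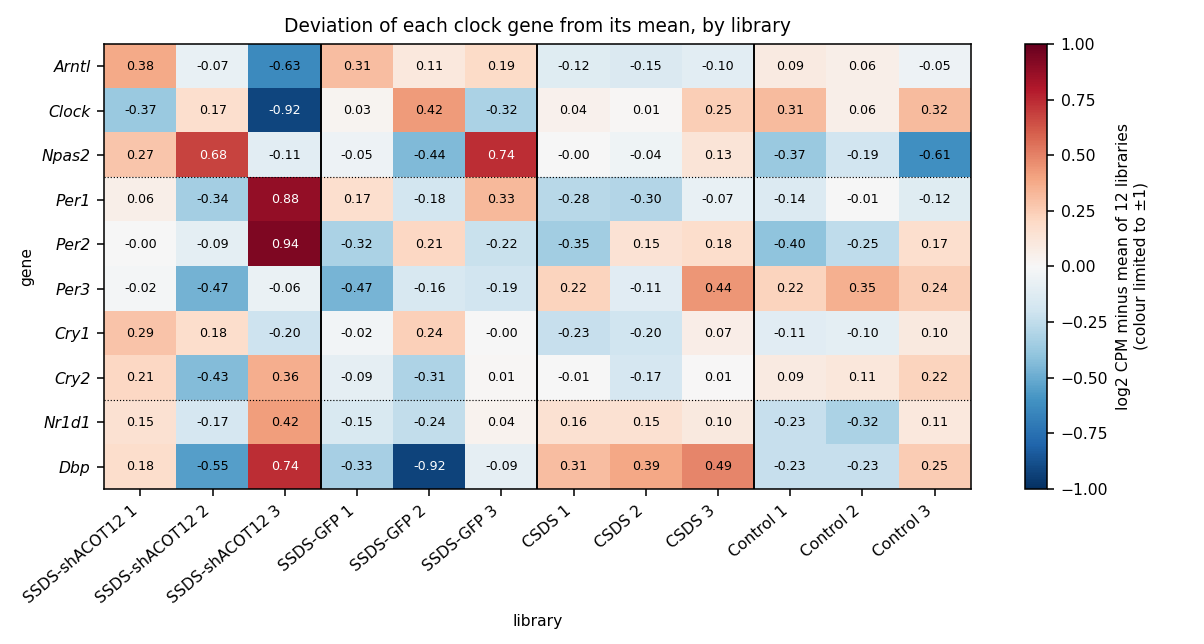
Deviation of log2 CPM from the gene's mean over the 12 libraries (colour, limited to ±1, with the value in each cell) for the 10 clock genes (rows) in each library (columns). The column of SSDS-shACOT12 3 is blue for Arntl (-0.63) and Clock (-0.92) and red for Per1 (0.88), Per2 (0.94) and Dbp (0.74).

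As a check for differences in time of collection, which the labels do not give, the mean deviation of Per1, Per2, Per3, Nr1d1 and Dbp minus that of Arntl, Npas2 and Clock was taken in each library. It was -0.02, -0.58 and 1.14 in SSDS-shACOT12 1 to 3, -0.32, -0.29 and -0.23 in SSDS-GFP, 0.04, 0.12 and 0.13 in CSDS, and -0.17, -0.07 and 0.25 in control, on the log2 scale. Both the lowest and the highest of the 12 values thus fell in the SSDS-shACOT12 group. All SSDS-GFP libraries lay below all control and all CSDS libraries, and CSDS lay within the control range. The group means were 0.18 ± 0.88 in SSDS-shACOT12, -0.28 ± 0.04 in SSDS-GFP, 0.10 ± 0.05 in CSDS and 0.01 ± 0.22 in control (SD, n = 3). In SSDS-shACOT12 3 the activators deviated by -0.92 for Clock, -0.63 for Arntl and -0.11 for Npas2, so Clock weighed most in their mean. Clock is not among the genes named above as peaking opposite to the Per genes, and is the longest clock gene (13727 bases). A value without Clock is not given. With the gene length trend removed, SSDS-shACOT12 3 had 1.04. No test was made of this score over chosen genes, and a part of collection time in it was not tested.

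**Figure D4:**
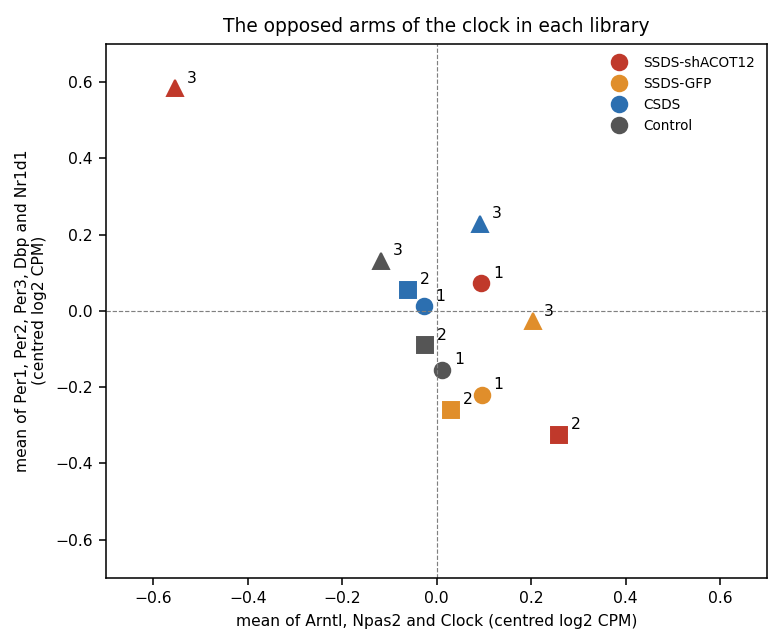
Mean deviation of Arntl, Npas2 and Clock (horizontal axis, centred log2 CPM) against that of Per1, Per2, Per3, Dbp and Nr1d1 (vertical axis, centred log2 CPM), 1 point per library, coloured by group and numbered by replicate. SSDS-shACOT12 3 lies alone at the upper left (-0.55, 0.58) and SSDS-shACOT12 2 at the lower right (0.26, -0.32).

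Across the 12 libraries, 1 of the 45 pairs of clock genes was correlated after adjustment. Dbp and Nr1d1, both E-box driven, had a Pearson r of 0.875 (permutation p = 0.00037, adjusted p = 0.0166 over 45 pairs) and a Spearman rho of 0.839 (permutation p = 0.00136, adjusted p = 0.0612). Their r was 0.841 without SSDS-shACOT12 3 and SSDS-GFP 2, the libraries farthest from the median of Dbp, and 0.923 on deviations from the group means (exact permutation within groups, adjusted p = 0.127). Without SSDS-shACOT12 3 alone it was 0.833 (permutation, adjusted p = 0.0972), so that 0 of the 45 pairs then passed. Clock and Per1 had an r of -0.840 (permutation p = 0.00347, adjusted p = 0.0781) and a rho of -0.538 (permutation p = 0.0747, adjusted p = 0.420), with r at -0.563 without SSDS-shACOT12 1 and 3. Arntl and Per2 had -0.714 (permutation p = 0.0180, adjusted p = 0.141; rho -0.329, permutation p = 0.298), which was -0.276 without SSDS-shACOT12 3. In all, 7 pairs had an unadjusted permutation p under 0.05 for r and 5 for rho, and 21 of the 45 values of r were positive. The libraries share depth, gene length trend and group, which enter these values.

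The genes whose log2 CPM was most like that of Dbp over the 12 libraries, out of 13637 genes that averaged at least 1 on that scale, were Arap3 (r = 0.901), Cd248 (0.894), Zfp408 (0.892), Nr1d1 (0.875) and Cops7b (0.854), and the least like were Ralgps2 (-0.896), Nol4l (-0.887), Zup1 (-0.874), Dnajc3 (-0.867) and Crkl (-0.858). Nr1d1 was thus at rank 4. For Arntl the most like were Phf2 (0.900), Cdr2l (0.893), Mtrr (0.884), Rph3al (0.878) and Dclk3 (0.870). Among the least like were Rnf217 (-0.889), Ciart (-0.880), Eme2 (-0.867) and Rgs4 (-0.860). Ciart encodes a repressor of the CLOCK and ARNTL pair, and Per2 lay at rank 39 from the bottom of the same order. These are descriptions of 12 libraries that include SSDS-shACOT12 3.

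Of 18 other core clock and clock-linked genes, all of them tested, 1 rose and 0 fell in SSDS libraries against the others, where 0.603% of all genes were called. Nfil3, a repressor that binds the same D-box as DBP, had 9.30 to 19.3 CPM in SSDS libraries (median 14.6), against 6.97 to 9.42 CPM in the others (median 8.40). All but SSDS-shACOT12 2 lay above the other groups. Its log2 fold change was 0.85 ± 0.16 (SE; adjusted p = 0.0424 in edgeR), which did not pass with the gene length trend removed (0.74, adjusted p = 0.0523) or without the 3 libraries that stood apart (0.46, adjusted p = 0.0833). Leaving out 1 library, it passed without SSDS-shACOT12 1, SSDS-shACOT12 2 or SSDS-GFP 2 and did not pass without any of the other 9 (adjusted p up to 0.159). Nr1d2, the paralogue of Nr1d1, had 38.6 to 87.1 CPM, against 77.7 to 104 CPM in the others (-0.64 ± 0.19, adjusted p = 0.0911). Of the list, 4 of 18 had an unadjusted p under 0.05, a share close to the 22.6% of all genes, with a median log2 fold change of 0.01, equal to that of all genes to 2 decimals. In SSDS-shACOT12 against SSDS-GFP, 0 of the 18 passed, against 0% of all genes, and 2 had an unadjusted p under 0.05, against 4.53% of all genes. Hlf, a relative of Dbp, had 95.7, 124 and 78.0 CPM in SSDS-shACOT12, against 123, 141 and 175 CPM in SSDS-GFP (-0.56 ± 0.17, adjusted p = 0.803). Ciart had 6.00, 6.30 and 16.0 CPM, against 6.14, 5.64 and 5.32 CPM in SSDS-GFP (0.73 ± 0.31, adjusted p = 0.803), and Bhlhe41, another E-box repressor, had 33.4, 38.3 and 81.5 CPM, against 35.4, 39.4 and 37.6 CPM (0.45 ± 0.26, adjusted p = 0.803). The high value of both lay in SSDS-shACOT12 3. In CSDS against control 0 of the 18 had an unadjusted p under 0.05, against 5.87% of all genes, and among the smallest were those of Hlf (0.35 ± 0.17) and Rorb (0.32 ± 0.26).

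Among 12 genes that are rhythmic in many mouse tissues, 6 of which are also in the list just described, 2 rose and 1 fell in SSDS libraries against the others, where 0.603% of all genes were called. The rise comprised Nfil3 and Hspa1b, an inducible heat shock protein, which had 17.6 to 43.2 CPM in SSDS libraries, against 11.0 to 16.0 CPM in the others (1.01 ± 0.18, adjusted p = 0.0339 in edgeR). Cirbp, a cold-inducible RNA-binding protein, had 40.4 to 57.9 CPM, against 60.3 to 99.3 CPM (-0.62 ± 0.12, adjusted p = 0.0424). Neither gene overlapped between the 6 SSDS and the 6 other libraries. Both lost the call with the replicate number as a block (adjusted p = 0.0587 for Hspa1b and 0.0723 for Cirbp). On leaving out 1 library, Hspa1b passed without SSDS-shACOT12 1, SSDS-shACOT12 2, SSDS-GFP 2 or SSDS-GFP 3, and Cirbp passed without these or Control 3, with adjusted p up to 0.149 and 0.159 otherwise. Usp2, a deubiquitinase, had 30.6 to 60.0 CPM, against 54.5 to 71.1 CPM (-0.52 ± 0.14, adjusted p = 0.0684). Of the 12, 5 were above 0, against 51.3% of all genes, with a median of -0.06.

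**Figure D5:**
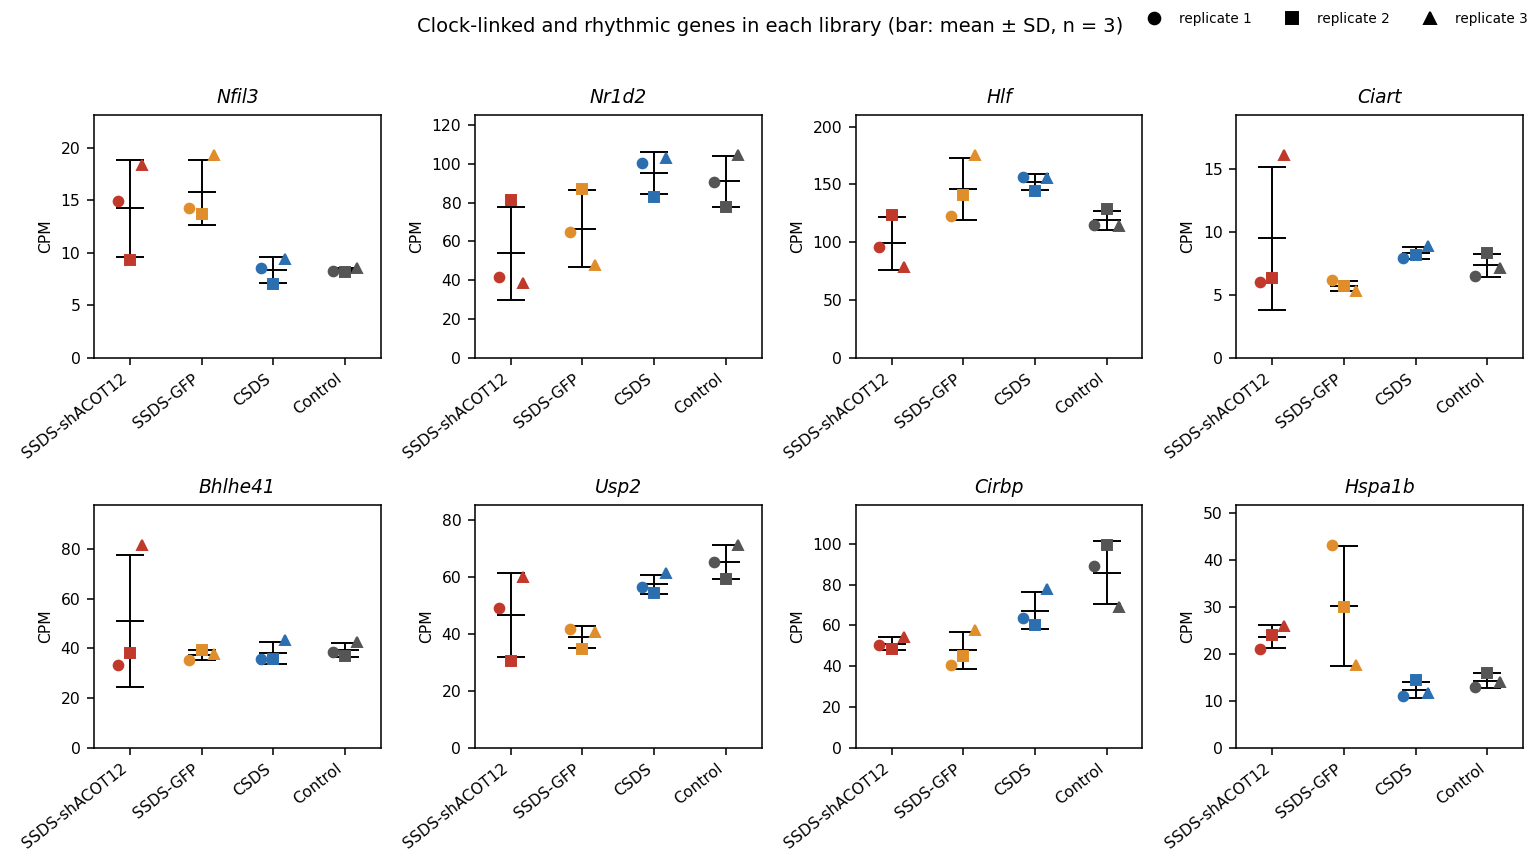
Level in CPM (vertical axis, from 0) of 8 clock-linked or rhythmic genes in the 3 libraries of each group (horizontal axis), with points for libraries and bars for the mean ± SD (n = 3). Hspa1b is above, and Cirbp below, every other library in all 6 SSDS libraries, while Ciart (16.0 CPM) and Bhlhe41 (81.5 CPM) are high in SSDS-shACOT12 3.

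Inputs that reset Per1 and Per2 were counted beside them. All 12 activity-induced genes were above 0 in SSDS libraries against the others, as were 51.3% of all genes, with a median log2 fold change of 0.94. Of the 12, 4 rose, against 0.603% of all genes called: Dusp1 (0.87 ± 0.11, adjusted p = 0.00605 in edgeR), Fos (2.27 ± 0.36, adjusted p = 0.0197), Egr2 (2.25 ± 0.37, adjusted p = 0.0269) and Junb (0.92 ± 0.17, adjusted p = 0.0424). Fos had 12.6 to 49.99 CPM, against 1.62 to 6.04 CPM, and was highest in SSDS-shACOT12 3, as Per1 and Per2 were. Fosb of the same list had 83.7 CPM in that library, against 3.71 to 11.6 CPM in the other 11 libraries. Dusp1 and Egr2 were highest in SSDS-GFP 1, and Junb in SSDS-shACOT12 1. Dusp1 passed on leaving out any 1 library (adjusted p up to 0.0379), whereas Fos, Egr2 and Junb did not pass without SSDS-GFP 1, Control 1 or any CSDS library, Egr2 and Junb also without Control 2, and Junb also without SSDS-shACOT12 3, SSDS-GFP 3 or Control 3. With the replicate number as a block, Egr2 (adjusted p = 0.0532) and Junb (adjusted p = 0.0701) did not pass. In SSDS-GFP against control all 12 were likewise above 0, against 50.8% of all genes, and 1 rose, Dusp1 (0.96 ± 0.16, adjusted p = 0.0440), against 0.0946% of all genes called. Of 12 glucocorticoid-induced genes 0 passed in that contrast of 6 with 6 libraries, where the smallest p were those of Mt2 (-0.46 ± 0.17), Plin4 (-1.33 ± 0.58) and Errfi1 (0.23 ± 0.11), and 5 were above 0. Plin4 had 1.85 to 3.03 CPM in SSDS libraries (median 2.46), against 0.987 to 42.4 CPM in the others (median 2.74). Its high values were those of Control 2 (42.4 CPM) and Control 1 (11.8 CPM), and 3 of the other 6 libraries lay below every SSDS library. Control 2 also had the highest sum over the 12 genes, 1099.99 CPM, against 538 to 904 CPM in the other 11 libraries. The part of these inputs in the levels of Per1 and Per2 was not tested.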

How the data were processed

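Total RNA was sequenced in 12 libraries prepared with a NEBNext Ultra RNA kit, per the labels. The submitters' processing notes name HISAT2 2.0.5, featureCounts 1.5.0-p3, DESeq2 (no version) and build mm10. The strand setting, annotation release and filters are not given in the sources used here. The authors deposited raw counts per gene and FPKM values. Gene length in bases is another column of the deposited count table, per the file headers. FPKM divides counts by gene length and by a library size set by the authors, and was used for levels between genes.

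Tests used the counts. With edgeR 4.0.16 (R 4.3.3), filterByExpr at a minimum count of 10 and a minimum total of 15 left 16915 genes. After TMM scaling, 1 quasi-likelihood fit by group covered all 12 libraries. Each contrast was tested 2-sided, with Benjamini-Hochberg adjusted p under 0.05 over all genes tested, and an adjusted p of a gene is from edgeR unless another tool is named. Errors of fold changes are standard errors from the F statistic. Correlations used log2 CPM (prior count 2), with p from 100000 permutations. The code was tested on simulated counts of this size.

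The members and lists were chosen with earlier results of these data known. The genes named were all 10 members, any gene of a list that passed the test or otherwise the 3 with the smallest p, and the 5 genes most and least like Dbp and Arntl, except that some are not reported here. Nr1d2, Usp2, and Ciart and Bhlhe41 in SSDS-shACOT12 3 were described after their values were seen. Promoters are RefSeq windows, and the coordinates of all 10 members in GENCODE M21 equal those of the files.

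Alternatives were DESeq2 size factors, the DESeq2 1.42.0 test, no filter, at least 50 counts in 3 libraries, limma-trend (limma 3.58.1) on log2 FPKM with 0.1 or 1 added, voom quality weights, no mitochondrial genes, each library left out, the 6 libraries compared alone, and the replicate number as a block. Chosen after seeing the data were removing the trend of a library with gene length (lowess at a span of 0.3), leaving out SSDS-shACOT12 1, SSDS-shACOT12 3 and SSDS-GFP 3 together, and deviations from group means. Deviations of SSDS-shACOT12 and SSDS-GFP libraries with the same number correlated at 0.196 to 0.419, all over the bound of 0.1. These were therefore also compared as pairs, although the labels do not say what a number shares. The other groups did not pass this check. Control libraries correlated with those of the same number at -0.259 to -0.0625 in SSDS-GFP and -0.155 to -0.104 in SSDS-shACOT12. The block was nevertheless fitted over all 12 libraries, so it also ties these groups by number. No 2 libraries were identical.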

Additional observations from a re-analysis of the deposited data

How the results depend on the processing

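In CSDS against control, 0 of the 10 clock genes passed in any alternative run, the replicate block included. In SSDS-shACOT12 against SSDS-GFP the count was 0 except without SSDS-shACOT12 2 (1, Dbp), so leaving out 1 library gave 0 to 1. In SSDS-GFP against control it was 1 with voom quality weights (Per3) and 0 otherwise. In SSDS libraries against the others it was 1 with the DESeq2 test and 1 with no filter (Per3). It was 3 with quality weights (Clock, Per1, Per3) and 0 to 3 on leaving out 1 library. In these 2 comparisons the counts over all genes, given in the next paragraph, also rose with DESeq2, no filter and quality weights. The calls are therefore not read as a result about the clock genes. Without SSDS-shACOT12 1, SSDS-shACOT12 3 and SSDS-GFP 3, SSDS-shACOT12 2 is the only library of its group, so no count is given. For any difference among the 4 groups it was 1 with DESeq2, 2 with no filter, 3 with quality weights, and 0 to 1 on leaving out 1. Over all genes, leaving out 1 library gave 1 to 2181 calls in this test, and the counts of its other settings are not given. Correlated pairs numbered 0 on deviations from group means, 0 without the 3 libraries, and 0 to 2 on leaving out 1. The cause of these changes was not tested.

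With the replicate number as a block, the count of clock genes called stayed at 0 in each comparison, while the genes called over the whole table numbered 9 in SSDS-GFP against control, against 16 without it, and 30 in SSDS libraries against the others, against 102. Those 2 counts were 527 and 1261 in DESeq2, 608 and 1508 with no filter, 2239 and 4440 with quality weights, and 4 to 111 and 9 to 3280 on leaving out 1 library. In CSDS against control the count was 0, but 6 in DESeq2, 132 with no filter, 34 with quality weights and 84 on the 6 libraries alone. In SSDS-shACOT12 against SSDS-GFP it was 0, but 108 with no filter and up to 985 on leaving out 1 library.

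Alternative log2 fold changes were taken for the clock genes in each comparison. In SSDS libraries against the others they were also taken for some list genes that were called or near the threshold there. Of these 1226 values, 36 changed sign. All 36 were of clock genes, but the choice of the list genes left those little room to change sign. Without the 3 SSDS libraries, SSDS-shACOT12 against SSDS-GFP gave -0.34 for Per1, -0.056 for Per2, -0.16 for Per3 and -0.23 for Cry2. SSDS-GFP against control gave 0.012 for Clock and -0.056 for Nr1d1, and SSDS libraries against the others 0.043 for Clock, -0.013 for Per1 and -0.18 for Nr1d1. With the length trend removed, Per3 had 0.000196 in CSDS against control, Nr1d1 -0.036 in SSDS-GFP against control and -0.027 in SSDS libraries against the others, and Cry2 0.0028 in the last. Quality weights gave -0.028 for Per2 in SSDS-GFP against control. On leaving out 1 library, Per3 ran from -0.21 to 0.058 in CSDS against control. In SSDS-shACOT12 against SSDS-GFP, Npas2 ran from -0.088 to 0.55, Per1 from -0.24 to 0.40 and Cry1 from -0.076 to 0.16. In SSDS-GFP against control, Clock ran from -0.37 to 0.0098, Per2 from -0.12 to 0.24 and Nr1d1 from -0.061 to 0.16. In SSDS libraries against the others, Arntl ran from -0.016 to 0.22, Per2 from -0.018 to 0.29, Cry2 from -0.16 to 0.032 and Nr1d1 from -0.071 to 0.085. The r of Per1 was -0.083 with Dbp and -0.338 with Nr1d1 without the 3 libraries, and ran from -0.015 to 0.498 and from -0.028 to 0.572 on leaving out 1.

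Without Per1 and Per2, the difference between the arms of the loop was -0.41, -0.47 and -0.29 in SSDS-GFP and 0.26, 0.20 and 0.25 in CSDS libraries 1 to 3. With the length trend removed it was -0.36, -0.24 and -0.29 in SSDS-GFP. The other 39 of 48 alternative values moved by less than the SD of their group. With 3 libraries a group and 171 or more counts per clock gene, the intervals limit what can be told. The 95% interval of Per3 in SSDS libraries against the others is -0.71 to -0.21, and that of Dbp in CSDS against control -0.15 to 1.05. The parts of depth and of spread between libraries in these intervals were not separated.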
